A study of Homo sapiens with 2 samples.

Results

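The antioxidant program of the cell was examined here through 43 genes: NFE2L2, which encodes the transcription factor NRF2, its repressor KEAP1, and enzymes and proteins of glutathione, thioredoxin, peroxide, NADPH, xenobiotic and iron metabolism. Genes entered the list by their function, but the list was drawn up with earlier results of these data known. Their probes were found by matching the RefSeq accession of each array probe to the gene symbol. Of the 43 genes, 41 had at least 1 probe, with 60 probes in all, while no accession on the arrays was matched to OSGIN1 or AKR1C2. For all 41 genes, signals of both RNAs were well above background on both arrays, and 59 of the 60 probes were kept. They made up 41 of the 16153 genes kept on the arrays.

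Expression was compared between clones of SKOV3, a human ovarian adenocarcinoma cell line. The knockdown clone cl-sh3 (clone 3) carried an shRNA against the transcription factor RUNX2 in the lentiviral vector pLKO.1-puro, and the control, called mock-transfected, was a clone that carried the same vector with a scramble sequence. Both clones had therefore been infected with lentivirus and selected with puromycin, and both grew in the same medium without further treatment. Each arm is 1 clone, so a difference between clones that has nothing to do with RUNX2 cannot be told apart from one that has. Both RNAs were labelled with the cyanine dyes Cy3 and Cy5 and put together on an Agilent whole human genome array in 2 hybridizations, with cl-sh3 in Cy5 and the control in Cy3 in hybridization 1 and the dyes exchanged in hybridization 2. The hybridizations held the same RNAs and count as 1 replicate. No test between the clones is possible, the values below carry no p-value, and the gap between hybridizations reflects technical error alone. The intensity of a spot is in arbitrary units after background correction and normalisation, and a ratio is always the log2 of cl-sh3 over control, so that -1 means 2-fold lower in cl-sh3.

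On the brightest probe of RUNX2, the target of the hairpin, cl-sh3 had log2 ratios of -2.04 and -1.30, while its other probe under that accession, a dimmer one, had 0.17 and -0.13, and a probe of another accession had -0.29 and -0.17. The epithelial markers of the line were all detected (8 of 8), with a median log2 ratio of 0.20. Leukocyte (5 of 5), endothelial (4 of 4) and fibroblast (4 of 5) marker lists had median ratios of 0.09, 0.02 and -0.12, and none of their genes differed 1.5-fold in both hybridizations. The software flag for a signal well above background was carried by 77.3% to 93.9% of the probe spots per channel and by 0% to 1.96% of the negative control spots, and no spot was saturated.

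NRF2 is a basic leucine zipper factor that KEAP1 holds in the cytoplasm and hands to a ubiquitin ligase for degradation. When oxidants or electrophiles modify cysteines of KEAP1, NRF2 escapes, enters the nucleus, pairs with small MAF proteins and binds antioxidant response elements next to genes for glutathione synthesis, the thioredoxin system, quinone reduction, NADPH supply and iron storage. The pathway is often switched on in carcinomas, ovarian ones included, where it is known for its part in drug resistance. Its activity is set largely by NRF2 protein, which RNA arrays do not measure.

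The element has the core TGACNNNGC, 9 bases long, which was searched on both strands of the RefSeq promoter windows of the assembly GRCh38.p14, each reaching from 250 bases before to 50 bases after a transcription start. Of the 43 genes, 34 had a window (46 windows in all), and 11 of the 46 windows (23.9%) held the core, compared to 13.3% of all 35116 windows. Counted by gene, 10 of 34 genes held it in a window (29.4%), compared to 16.1% of all 27305 genes with a window. The excerpts shown are those of TXNRD1, the gene of the list with the lowest ratio in cl-sh3, of GCLM, whose partner GCLC had the second lowest, of EPHX1, the gene with the highest mean ratio among those with a match, and of GSTP1, whose core contains the letters of the AP-1 motif TGACTCA. Capitals mark the core, and where it lies on the other strand it reads GCNNNGTCA.
TXNRD1 match A: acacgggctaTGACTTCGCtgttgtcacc
TXNRD1 match B: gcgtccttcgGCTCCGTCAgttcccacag
TXNRD1 match C: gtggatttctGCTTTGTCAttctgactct
GCLM: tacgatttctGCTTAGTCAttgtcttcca
EPHX1: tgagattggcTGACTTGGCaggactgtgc
GSTP1: gccggcgccgTGACTCAGCactggggcgg
Each excerpt is given 5′ to 3′ on the strand of its gene. Those of TXNRD1 lie on the plus strand at chr12:104215670-104215698, chr12:104215761-104215789 and chr12:104286920-104286948, in the order A, B and C, with C in the window of another start site of the gene. The GCLM excerpt lies on the minus strand at chr1:93909446-93909474, that of EPHX1 on the plus strand at chr1:225825266-225825294, and that of GSTP1 on the plus strand at chr11:67583736-67583764. A match is a run of letters and was not tested for binding, and enhancers outside these short windows were not searched.

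As a group, the 41 genes moved little and in both directions between the clones. No gene of the list was at least 2-fold lower in both hybridizations, compared to 0.52% of all genes kept, and none was at least 2-fold higher, compared to 0.136% of all genes. At a bar of 1.5-fold in both hybridizations, GCLC and TXNRD1 were lower in cl-sh3, which is 2 of 41 genes (4.88%) against 2.61% of all genes, and no gene was higher, against 1.6% of all genes. Under median centring in place of loess the split over all genes turned from 259 higher and 421 lower to 353 higher and 316 lower at this bar. The ratio lay below 0 in both hybridizations in 14 genes (34.1%, against 28.4% of all genes) and above 0 in both in another 14 (34.1%, against 30.9%). In the other 13 of the 41 genes the sign differed between the hybridizations, compared to 6569 of all 16153 genes. Of these 13, 9 were brighter in Cy3 and 4 brighter in Cy5 in both hybridizations. Below, this is called a change of sign with the dye, and its source was not tested. Some of the 13 had a ratio close to 0 in 1 hybridization, such as PGD (0.01) and ABCC1 (0.01), where the sign carries little.

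The median of the mean log2 ratios was 0.03 over the list, with quartiles of -0.19 and 0.12, compared to a median of 0.01 over all genes. The hybridizations differed by a median of 0.23 over the list and by the same 0.23 over all genes. A mean ratio of at least 0.5 in size was reached by 6 genes (14.6%, against 10.7% of all genes): TXNRD1, GCLC, NFE2L2 and CAT were lower, and TXN and SOD1 were higher. Across the 41 genes, Pearson's r between the hybridizations was 0.62 and Spearman's rho 0.57, given as a description of genes that share both RNAs and both arrays.

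**Figure D1:**
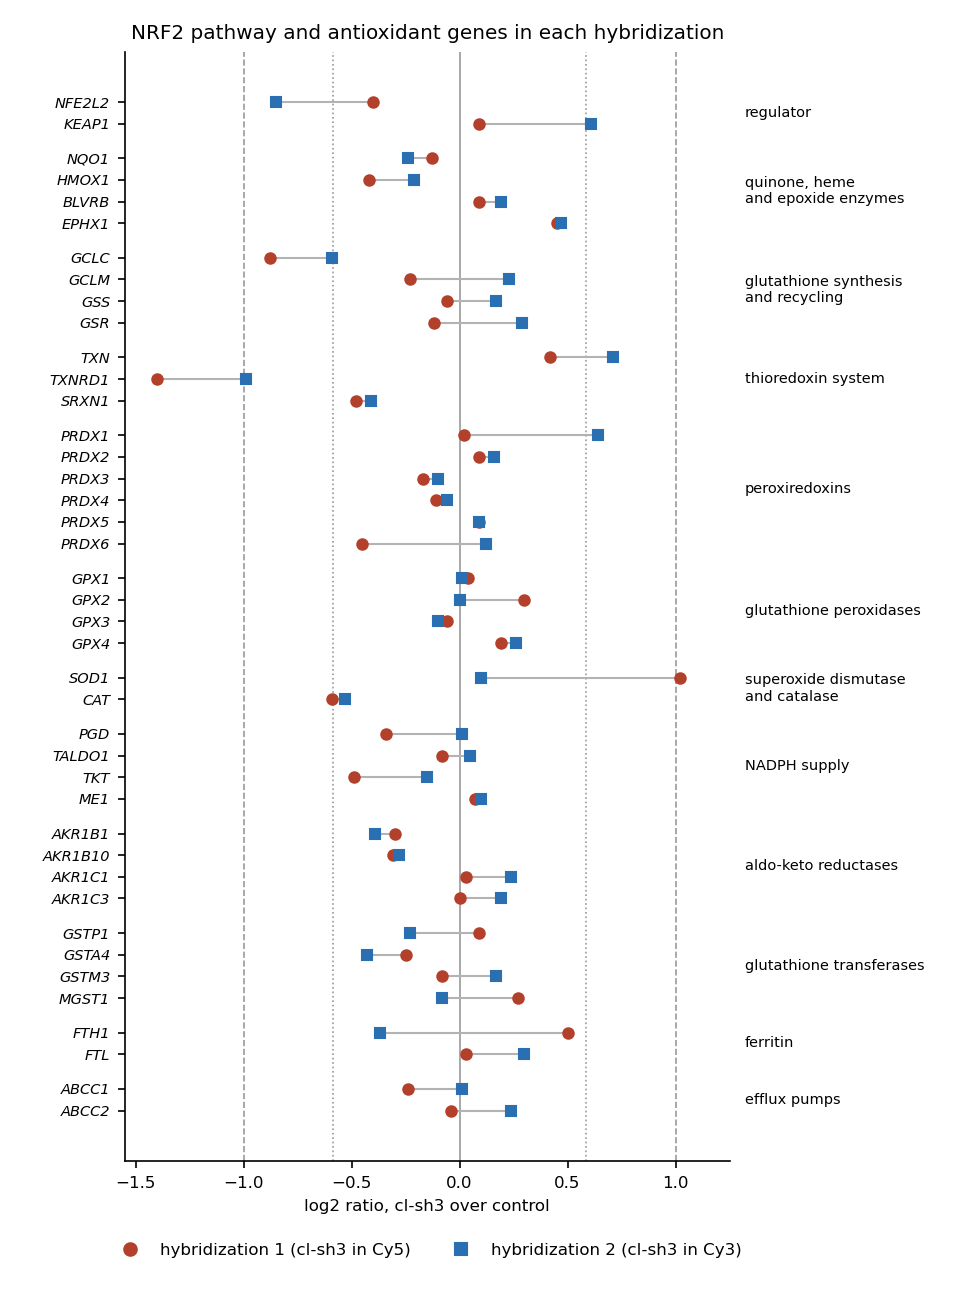
Log2 ratio of cl-sh3 over control (horizontal axis) for the 41 measured genes, grouped by role, with a circle for hybridization 1 and a square for hybridization 2; dotted lines mark 1.5-fold and dashed lines 2-fold. TXNRD1 lies farthest to the left at -1.40 and -0.99, and only TXNRD1 and GCLC have both points beyond the left dotted line.

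The regulators themselves were read first. NFE2L2 had a normalised intensity of 18113 and 17077 in the control in hybridizations 1 and 2, compared to 13719 and 9455 in cl-sh3. Both values of cl-sh3 lay under both values of the control, and the log2 ratios were -0.40 and -0.85, a mean of 1.54-fold lower. Overlap, here and below, compares 2 hybridizations of the same RNAs and not replicates. Intensities were not normalised between the arrays, so overlap also depends on the level of each array. Only the ratio within an array compares the clones directly. Since each RNA comes from a whole culture, fewer cells with a transcript and less transcript per cell cannot be told apart here or for any other gene. KEAP1 had the opposite sign: its intensity was 5171 and 4288 in the control and 5517 and 6563 in cl-sh3. The log2 ratios of KEAP1 were 0.09 and 0.61, so almost all of its difference came from hybridization 2. Of all 16153 genes, 3.84% had a lower mean ratio than NFE2L2 and 8.47% a higher one than KEAP1.

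TXNRD1, the cytosolic thioredoxin reductase that uses NADPH to recharge thioredoxin, showed the largest difference of the list. Its intensity was 3121 and 2450 in the control and 1183 and 1235 in cl-sh3. Both values of cl-sh3 lay under both values of the control, the log2 ratios were -1.40 and -0.99, and the mean was 2.29-fold lower. Only 69 of the 16153 genes had a lower mean ratio. Hybridization 2 fell just short of 2-fold, and under normexp with offset 0, with the ratios of the scanner software and with the deposited ratios, TXNRD1 passed the 2-fold rule, with means of -1.22, -1.27 and -1.27. The gene was read by 1 probe, so no second probe could be set beside it.

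Its substrate thioredoxin differed the other way. TXN had an intensity of 66892 and 59119 in the control and 89667 and 96809 in cl-sh3, without overlap. The log2 ratios of TXN were 0.42 and 0.71, a mean of 1.48-fold higher, and a second probe gave 0.48 and 0.34. SRXN1 encodes sulfiredoxin, which repairs overoxidized peroxiredoxins, and had closely matching ratios of -0.48 and -0.41. Within this small group, the reductase and sulfiredoxin were thus lower in cl-sh3 while thioredoxin was higher.

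Glutathione is made by glutamate-cysteine ligase, whose catalytic subunit is GCLC and whose modifier subunit is GCLM, and by glutathione synthetase (GSS). GCLC had an intensity of 3623 and 3014 in the control and 1964 and 2005 in cl-sh3, without overlap. The log2 ratios of GCLC were -0.88 and -0.59, a mean of 1.67-fold lower, and without background correction or with median centring the gene no longer reached 1.5-fold in both hybridizations. The modifier subunit did not share this difference. GCLM had log2 ratios of -0.23 and 0.23, a mean of 0.00, and was brighter in Cy3 in both hybridizations. The same dye pattern was seen in GSS (-0.06 and 0.17) and in glutathione reductase, GSR (-0.12 and 0.29).

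**Figure D2:**
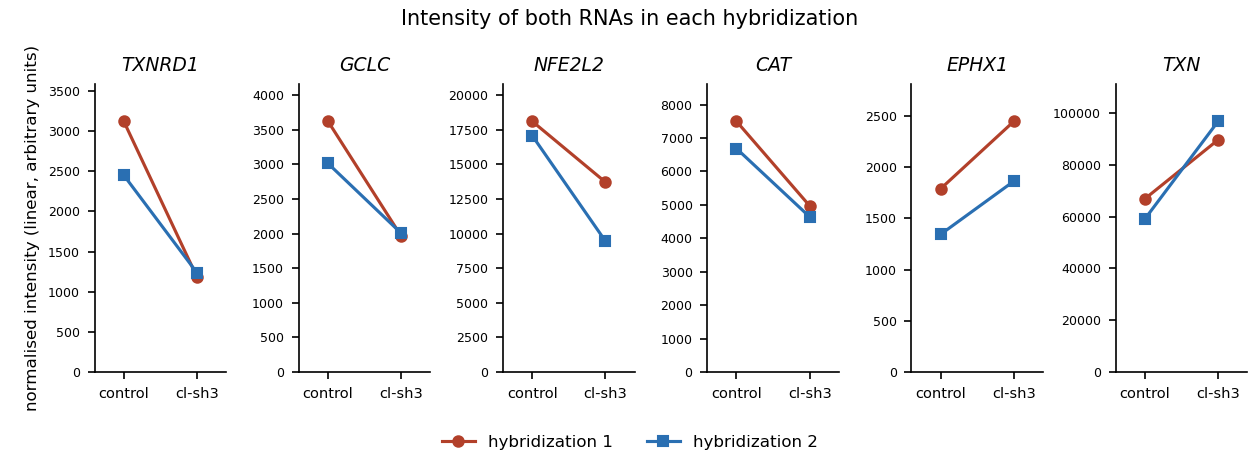
Normalised intensity on a linear axis that starts at 0 (arbitrary units) of the control and cl-sh3 RNA for 6 genes, with a line for each hybridization; each panel has its own scale, and levels are not comparable between panels. In all 6 panels the control and cl-sh3 values do not overlap: cl-sh3 is lower for TXNRD1 (1183 and 1235 against 3121 and 2450), GCLC, NFE2L2 and CAT and higher for EPHX1 and TXN. The genes shown are among those of the list with the largest mean ratios in size, so the gap restates the ratio. Levels were not normalised between the arrays, and genes without overlap were not counted over all genes.

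The enzymes of quinone, heme and epoxide metabolism differed by less than 1.5-fold. NQO1, the quinone reductase that is the usual readout of the pathway, had an intensity of 3232 and 2937 in the control and 2955 and 2483 in cl-sh3, with overlap. Its log2 ratios were -0.13 and -0.24. HMOX1, the inducible heme oxygenase, is printed as 10 spots on each array. The log2 ratios of HMOX1 were -0.42 ± 0.11 and -0.21 ± 0.07 (SD over 10 spots of 1 array, a technical error), and all 10 spots were below 0 in both hybridizations. BLVRB, a biliverdin and flavin reductase that acts downstream of heme breakdown, had ratios of 0.09 and 0.19. EPHX1, the microsomal epoxide hydrolase, had an intensity of 1789 and 1344 in the control and 2447 and 1863 in cl-sh3. The ratios of EPHX1 were 0.45 and 0.47, a mean of 1.38-fold higher, with 4.94% of all genes above it.

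Peroxiredoxins reduce peroxides with electrons from thioredoxin. Of the 6 peroxiredoxin genes, 2 were lower in both hybridizations and 3 higher in both, against 28.4% and 30.9% of all genes. The other 1 changed sign with the dye, and the median of the 6 means was 0.00. PRDX1, an NRF2 target, had ratios of 0.02 and 0.64. PRDX6, the member that uses glutathione, had ratios of -0.45 and 0.12. The remaining genes were small and steady: PRDX2 (0.09 and 0.16), the mitochondrial PRDX3 (-0.17 and -0.10), the endoplasmic reticulum PRDX4 (-0.11 and -0.06) and PRDX5 (0.09 and 0.09) each lay within 0.2 of 0 in both hybridizations. The glutathione peroxidases also lay close to the control. Cytosolic GPX1 had ratios of 0.04 and 0.01, and GPX4, which reduces lipid peroxides in membranes, had 0.19 and 0.26. GPX2, the gastrointestinal enzyme, had 0.30 and 0.00, and the secreted GPX3 had -0.06 and -0.10.

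Catalase and SOD1, the only superoxide dismutase of the list, went in opposite directions. CAT, which breaks down hydrogen peroxide in peroxisomes, had an intensity of 7501 and 6687 in the control and 4971 and 4642 in cl-sh3, without overlap. Its log2 ratios of -0.59 and -0.53 were closely matched, with a mean of 1.47-fold lower, and 5.08% of all genes had a lower mean. SOD1, the copper-zinc enzyme that turns superoxide into hydrogen peroxide, was read by a pair of probes that gave like means by unlike routes. The brightest SOD1 probe had ratios of 1.02 and 0.10, while the probe printed as 10 spots had 0.37 ± 0.06 and 0.43 ± 0.07 (SD over 10 spots of 1 array), with no spot below 0. Both probes were above 0 in both hybridizations, with means of 0.56 and 0.40.

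**Figure D3:**
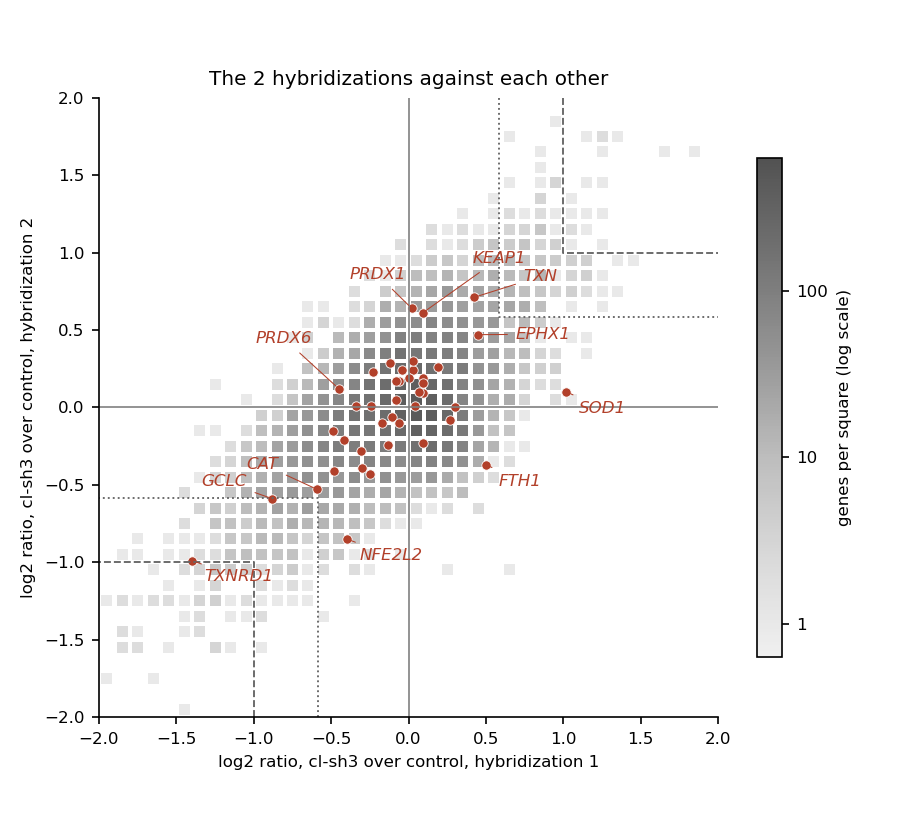
Log2 ratio in hybridization 1 (horizontal) against hybridization 2 (vertical), with the 41 genes as red points over grey squares that count all genes on a log scale; 20 genes with a ratio of 2 or more in size lie outside the axes, dotted corners mark 1.5-fold in both and dashed corners 2-fold in both. Most red points sit in the dense centre, TXNRD1 lies at the edge of the lower dashed corner, and SOD1 and FTH1 lie off the diagonal.

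Genes for NADPH supply differed little. PGD, the second dehydrogenase of the pentose phosphate pathway, had ratios of -0.34 and 0.01. TKT, its transketolase, had -0.49 and -0.15, and the representative probe of transaldolase, TALDO1, had -0.08 and 0.05. Malic enzyme, ME1, had 0.07 and 0.10 on its brighter probe and -0.29 and -0.15 on the other, so its direction depended on the probe.

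Aldo-keto reductases detoxify aldehydes and ketones, and several respond strongly to NRF2 in human cells. AKR1B1, aldose reductase, had ratios of -0.30 and -0.39, and AKR1B10 had -0.31 and -0.28 on its brighter probe and -0.69 and -0.46 on the other. The AKR1C genes are so alike in sequence that their probes may read each other's transcripts. The 3 probes of AKR1C1 had means between -0.35 and 0.17, and the AKR1C3 probe had 0.00 and 0.19, so these values are uncertain as to the gene. Among the glutathione transferases, which attach glutathione to electrophiles, GSTA4 was lower in both hybridizations (-0.25 and -0.43). The others changed sign with the dye on their representative probe: GSTM3 had -0.08 and 0.17 on its brighter probe but 0.15 and 0.11 on its other kept probe, the microsomal MGST1 had 0.27 and -0.08, and GSTP1 had 0.09 and -0.23. GSTP1 is printed as 10 spots, with an SD of 0.05 and 0.04 between them, and 0 of 10 spots were below 0 in hybridization 1 and 10 of 10 in hybridization 2. With the ratios of the scanner software the GSTP1 values were -0.04 and -0.12, without the dye pattern.

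Ferritin stores iron in a shell of heavy (FTH1) and light (FTL) chains. FTH1 had the clearest dye pattern of the list. All 5 FTH1 probes were above 0 in hybridization 1 (between 0.17 and 0.58) and below 0 in hybridization 2 (between -0.70 and -0.18), that is, brighter in Cy5 in both, and this held for all 8 versions of the ratio that were computed. Their means lay between -0.13 and 0.06. The 3 FTL probes had means between 0.09 and 0.16. The efflux pumps that export glutathione conjugates, ABCC1 (-0.24 and 0.01) and ABCC2 (-0.04 and 0.24), changed sign with the dye.

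Many of these genes are among the brightest spots of the arrays. For such spots the scanner software takes the signal from a scan at low gain and scales it up. All 4 signals (both dyes, both hybridizations) were of this kind in 13 of the 41 genes (31.7%), compared to 4.48% of all genes. They were TXN, SOD1, PRDX1, PRDX4, PRDX6, GPX1, TALDO1, TKT, AKR1B1, AKR1C3, GSTP1, FTH1 and FTL. Their hybridizations differed by a median of 0.29, compared to 0.23 in the 23 genes with no such signal, and over all genes the same medians were 0.26 and 0.23. The hybridizations differed by more than 0.5 in 5 genes (12.2%, against 13.2% of all genes), of which 4 belonged to these 13 (FTH1, PRDX1, PRDX6 and SOD1), and the fifth was KEAP1. The share of such gaps among all genes with 4 such signals was not counted, and the part of the scaling in these gaps was not tested. TXNRD1, GCLC, NFE2L2, CAT and EPHX1 had no such signal.

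**Figure D4:**
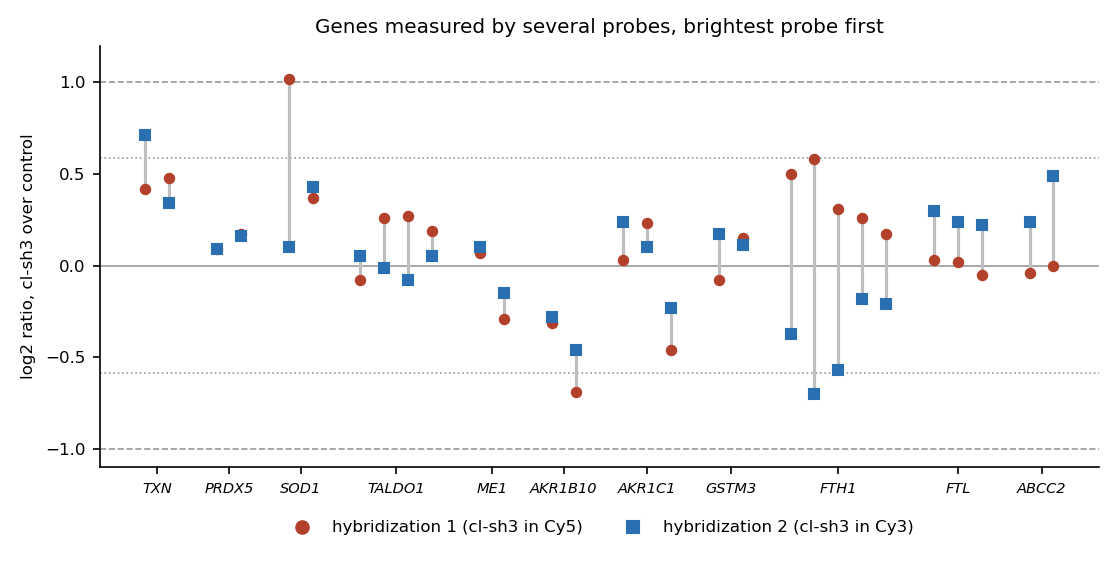
Log2 ratio of every kept probe of the 11 genes with more than 1 (vertical axis), brightest probe first within a gene, with a circle for hybridization 1 and a square for hybridization 2; dotted and dashed lines mark 1.5-fold and 2-fold. All 5 FTH1 probes have the circle above 0 and the square below it, and the AKR1C1 probes spread the most, by 0.52 between means.

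The promoter matches can be set beside the ratios. The 10 genes with an antioxidant response element core in a window had a median log2 ratio of 0.04 (from -1.19 in TXNRD1 to 0.46 in EPHX1), with 2 lower in both hybridizations, 3 higher in both and 5 of mixed sign. The 22 measured genes with a window and no match had a median of 0.01 (from -0.74 in GCLC to 0.57 in TXN), with 10 lower in both and 9 higher in both. Over all genes kept, 28.4% were lower in both and 30.9% higher in both. The ranges of the sets with and without a match overlapped widely, and TXNRD1 and GCLM, both with a match, had means of -1.19 and 0.00.

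Genes that act with NRF2 but are outside the list were read in the same way. All 17 partners and regulators were measured, with a median of -0.10. At the 1.5-fold bar, 2 of the 17 were lower and 2 were higher, against 2.61% and 1.6% of all genes. The lower ones were its relatives of the same factor family: NFE2, the erythroid member, had ratios of -1.60 and -1.29, and NFE2L3 had -0.84 and -0.60. The higher ones are both linked to NRF2 turnover. FBXW11, a substrate receptor of the ubiquitin ligase that degrades NRF2 after GSK3 phosphorylation, had 1.29 and 1.67 on its brighter probe and only 0.29 and -0.09 on the other. DPP3, a peptidase that binds KEAP1, had 0.64 and 1.12.

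Of 53 further NRF2 targets and antioxidant genes, 51 were measured, with a median of 0.00. In cl-sh3, 6 of the 51 passed the 1.5-fold bar as lower and 1 as higher, against 2.61% and 1.6% of all genes. TXNIP, which binds and inhibits thioredoxin, stood lowest at -2.13 and -1.87. Its intensity was 228991 and 173532 in the control and 52255 and 47503 in cl-sh3, a mean of 4.0-fold lower. Beside it, glutaredoxin (GLRX) had ratios of -0.78 and -0.87 and the glutathione-degrading enzyme CHAC1 had -0.70 and -1.22. Extracellular superoxide dismutase, SOD3, had -0.91 and -0.59. Among 6 iron handling genes, with a median of 0.00, 3 were of mixed sign. In both hybridizations 2 were lower and 1 was higher, against 28.4% and 30.9% of all genes. The lower ones were the iron exporter SLC40A1 (-0.90 and -1.08) and the ferritin receptor of ferritinophagy, NCOA4 (-0.77 and -0.84). Outside the iron genes, the 1 gene of the 51 that passed the 1.5-fold bar as higher was MTHFD1, with 0.71 and 0.63. It is an enzyme of folate metabolism that also produces NADPH. SLC7A11, the cystine carrier that feeds glutathione synthesis, is named after its values were seen: its brightest probe had -0.99 and -0.15, and the other probes had -1.58 and -1.0, and -0.48 and -0.51.

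**Figure D5:**
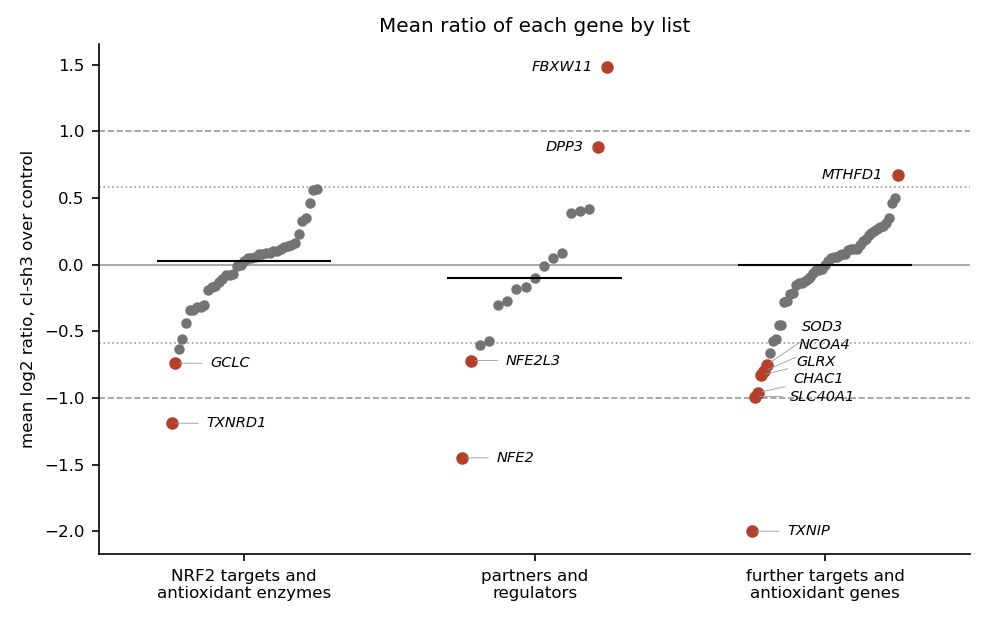
Mean log2 ratio of cl-sh3 over control (vertical axis) for each gene of the 3 lists, ordered within a list, with a black bar at the list median; red points with names are genes at least 1.5-fold changed in the same direction in both hybridizations, dotted lines mark 1.5-fold and dashed lines 2-fold. The medians are 0.03, -0.10 and 0.00, and TXNIP (-2.0), NFE2 (-1.45) and FBXW11 (1.48) lie farthest from 0.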

How the data were processed

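The authors hybridized RNA of cl-sh3 and of the control clone on Agilent arrays with a dye swap. They deposited the intensity of each spot and its local background as median pixel values, and a log10 ratio of Cy5 over Cy3. The file headers name Feature Extraction 10.5.1.1, the submitters' processing notes 8.5.1.1. The deposited intensities are not normalized, while the deposited log10 ratios carry the software's background and dye correction.

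Local backgrounds were handled by normexp in limma 3.58.1 (R 4.3.3), with an offset of 50. After removal of the 1639 control spots from 45015, and of 153 and 144 flagged spots, loess was applied within each array. The offset draws ratios of dim probes towards 0. Spots of a probe were averaged. A probe was kept when at least 1 RNA had the software's flag for signal well above background on at least 50% of its spots in both hybridizations (36065 of 41000 probes). Gene names came from RefSeq (GRCh38.p14), which held 18023 of the 18715 RefSeq accessions of the arrays. The arrays were annotated on hg18, so no gene coordinates are given, and promoter excerpts are on GRCh38.p14. For RUNX2, 2 of 3 probes carry a retired accession and were named through the study's gene list. A gene is represented by its brightest kept probe.

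All members are named, and of the other lists those at least 1.5-fold changed in both hybridizations. A gene planned for a list is not reported here. The members and lists were chosen with earlier results of these data known. With 1 replicate there is no test, and the number of arrays limits the precision. The normalization and the 2-fold rule were tested on simulated data with larger changes of bright probes, which did not cover the 1.5-fold bar. Python 3.11.15, numpy 2.4.6, pandas 2.3.3 and matplotlib 3.10.9 were used. The alternatives were other background corrections, centrings, filters, ratio sources, fold rules, probe choices and each hybridization alone.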

Additional observations from a re-analysis of the deposited data

How the results depend on the processing

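Of the 41 genes, 33 kept the sign of their mean ratio under all 11 alternatives on both hybridizations and 8 changed it under at least 1, while the 15 genes with a mean of at least 0.3 in size all kept it. Several of the 11 tested little: normalisation between the arrays and other detection filters left these ratios as they were. The software's and the deposited ratios were nearly the same values. Large means keep their sign more easily, and the share over all genes is not given. The count of genes at least 2-fold lower was 1 (TXNRD1) instead of 0 with normexp offset 0, with the software's log ratios, with the deposited table and with the mean of both hybridizations. Over all genes this share also rose, from 0.52% to 0.625%, 0.724%, 0.718% and 0.792% in the same order. The count at least 1.5-fold lower was 1 (TXNRD1) instead of 2 without background correction and with median centring, where 1 gene (TXN) was at least 1.5-fold higher instead of 0. Over all genes the share lower fell from 2.61% to 2.29% and 1.96%, and the share higher rose from 1.6% to 2.19% with median centring. The mean rule put 22 genes above 0 instead of 14, while over all genes the share rose from 30.9% to 52.9%. The median of the list was 0.14 with median centring, where that of all genes was 0.05, and -0.07 with the probe of largest ratio.

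With each hybridization alone, the median lay between -0.06 and 0.01. The genes above 0 then numbered 18 to 23 and those below 0 also 18 to 23 (all genes: 50.9% to 51.6% above and 48.4% to 49.1% below). At the 1.5-fold bar, 1 to 3 were higher and 3 lower in each (all genes: 2.87% to 4.92% higher and 3.83% to 7.73% lower). At the 2-fold bar, 0 to 1 were higher (SOD1) and 0 to 1 lower (TXNRD1), against 0.334% to 0.625% and 0.724% to 1.48% of all genes. Over all genes, those at least 2-fold higher numbered 22, and 44 with median centring, 46 with the software's ratios or the deposited table and 51 with the mean rule. The mean rule also gave 128 instead of 84 at least 2-fold lower. Hybridization 1 alone gave 54 higher and 239 lower, and hybridization 2 alone 101 and 117. No paired analysis was possible because each hybridization already holds both RNAs and there is 1 pair of clones. The causes of these shifts were not tested. Signal over background limits dim probes such as those of GPX3, GPX2 and ABCC1, and 1 clone per arm limits every value.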

Other observations

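Within the 53 further genes, 19 reductases and conjugating enzymes were all measured and had a median log2 ratio of 0.08, with means from -0.45 to 0.50 and none at 1.5-fold in both hybridizations. The 4 further efflux pumps had a median of -0.22 and changed sign with the dye in 3 cases. The 3 sestrins had a median of -0.14, with 2 lower in both hybridizations. The 6 further thioredoxin and glutaredoxin genes had a median of -0.29, with 3 lower and 1 higher in both hybridizations. The lower ones include TXNIP and GLRX, already named above. The 6 further NADPH supply genes had a median of 0.10, with 2 higher and 1 lower in both. Over all genes, 28.4% were lower in both hybridizations and 30.9% higher in both, and 6569 of 16153 changed sign with the dye.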
